A study of Mus musculus with 8 samples.

Results

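The 36 genes described here encode enzymes of purine and pyrimidine nucleotide synthesis, and they were chosen by name from a list of de novo, deoxynucleotide, salvage and nucleotide kinase enzymes. All 36 were listed in the authors' deposited table of 16573 genes. They held 76 of its 36743 rows, because the table lists many genes in several transcript-like rows (Ak1.1, Ak1.2 and Ak1.3, for example). The row of a gene with the highest mean count is called its leading row, and the others its minor rows. The libraries came from mouse tibialis anterior with extensor digitorum longus at day 3 after injury by notexin, a muscle-destroying snake venom phospholipase given at 2 mg/mL. The groups were labelled by genotype as Ctrl (4 libraries) and Psat1iKO (4 libraries), with notexin injury and day 3 shared by both. By the labels the RNA is from muscle stem cells isolated by flow cytometry, whereas the design text describes RNA extracted from the muscles, and the sources do not settle which. The sources used here do not give the age or sex of the mice, the driver of the Psat1 deletion, an inducing agent, the exons removed or the alleles carried by Ctrl.

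Purine synthesis builds the ring step by step on phosphoribosyl pyrophosphate (PRPP), taking a whole glycine molecule and formyl groups carried by folate, and ends at inosine monophosphate (IMP), from which AMP and GMP are made. Pyrimidine synthesis makes the ring first, attaches PRPP afterwards and gives UMP, from which CTP is made. Ribonucleotide reductase turns the diphosphates into deoxynucleotides, and thymidylate synthase uses a folate one-carbon unit to make dTMP. Serine, whose synthesis runs through the aminotransferase encoded by Psat1, is a source of both the glycine and the folate one-carbon units. Activated muscle stem cells re-enter the cell cycle after injury and copy their DNA, which consumes these nucleotides.

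The deposited values are a mean normalized count over all 8 libraries and, for each row, a log2 fold change and standard error, so no value of a single library and no library depth can be given. A fitted group mean was rebuilt for each row from that mean and the fold change. Whether replicate libraries are separate mice is not stated, and the p-values therefore reflect library-to-library spread that could be technical. Psat1 itself was lower in Psat1iKO but still present, with fitted means over its rows of 20262 in Ctrl and 14456 in Psat1iKO. The leading row Psat1.1 had a log2 fold change of -0.49 ± 0.0675 (SE) per the authors' deposited table (DESeq2 adjusted p = 1.22e-09). Stem cell and myoblast markers were abundant, with a median mean count of 10441 over the leading rows of 12 listed genes, against 1280 for 19 adult myofibre genes, 299 for 9 pericyte and smooth muscle markers, 83.0 for 8 fibro-adipogenic progenitor markers, 60.0 for 13 macrophage markers and 18.7 for 8 endothelial markers. Within these other lists single genes were abundant, up to a mean count of 28073 in the myofibre list and 12417 for Col3a1 in the fibro-adipogenic list. Of the stem cell list 1 gene was called, against 0.338% of all leading rows. It was Myod1, which was higher in Psat1iKO at 0.16 ± 0.0386 per the authors' deposited table (DESeq2 adjusted p = 0.0058).

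Nucleotide synthesis genes as a group had nearly the same normalized level in both genotypes. Normalized counts are relative to the other genes, so a change in RNA shared by most genes would not show. Summed over the 36 leading rows, the fitted mean was 194195 in Ctrl and 193708 in Psat1iKO. The median log2 fold change was -0.01, with 17 members above 0 and 19 below, and the median over all 16573 leading rows was also -0.01. Of the 36, 24 differed by less than 0.05 on the log2 scale (66.7%), against 42.9% of the 10260 leading rows with a mean count of at least 100. The members were also well counted. Their median leading-row mean was 3944 and their median standard error 0.0684, while the 10260 rows had a median standard error of 0.113. A 95% interval (1.96 standard errors to each side) lay inside a 1.2-fold change for 27 members and inside a 2-fold change for 34. The exceptions to the latter were Ak1 and Tk2.

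By the DESeq2 adjusted p under 0.05 from the authors' deposited table, 1 of 36 leading rows was called, the row Ak1.3 of adenylate kinase 1, which was higher in Psat1iKO. In the background, 0.338% of all leading rows were called, and 0.193% were called and higher. Counting a gene when any of its rows was called gave 2 of 36 members, Ak1 and Ak4, against 1.39% of all genes. At an unadjusted p under 0.05 there were 3 leading rows of members, Ak1.3 and Tk2.1 higher and Cmpk1 lower, or 8.33% against a background of 4.09%. These counts rest on 1 to 3 genes each, too few to read against the background.

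**Figure D1:**
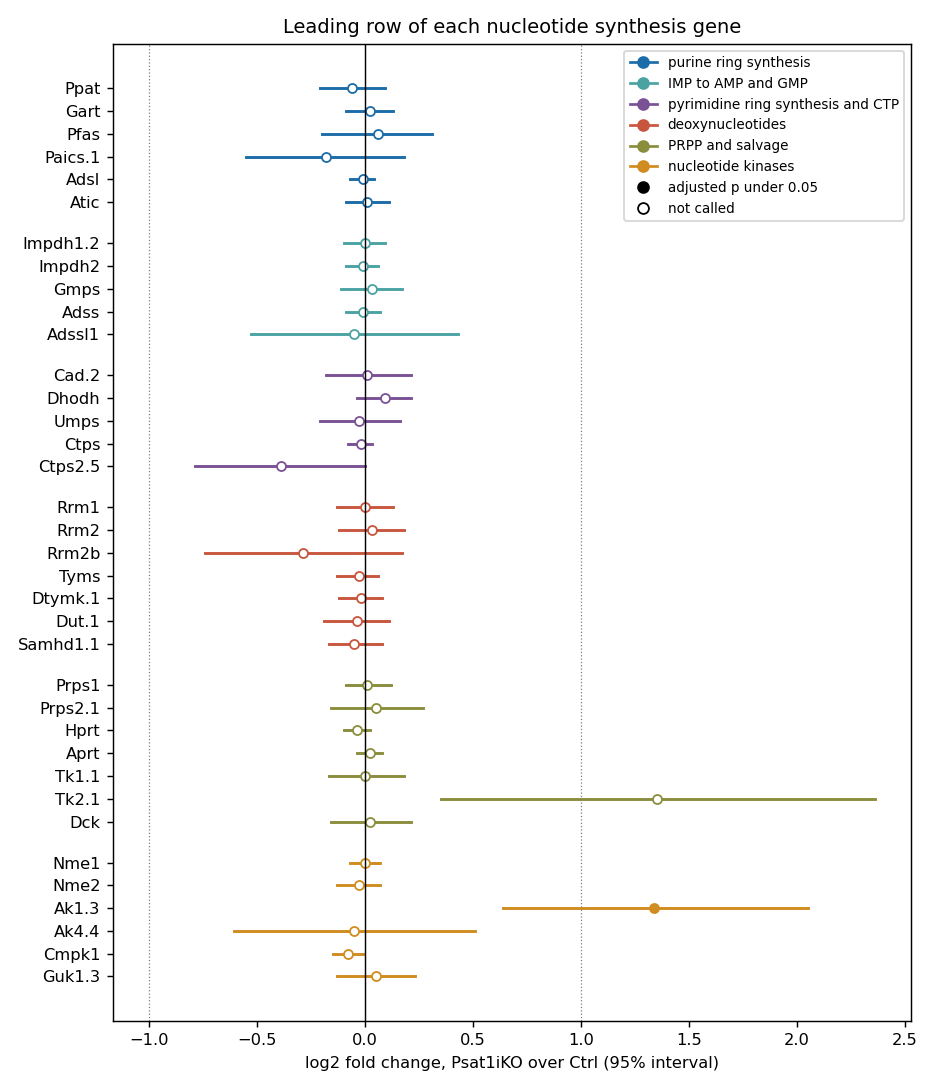
Log2 fold change of Psat1iKO over Ctrl (horizontal axis) for the leading row of each of the 36 genes, grouped by role, with 95% intervals of 1.96 standard errors from the authors' deposited table. The filled point marks the called row Ak1.3 at 1.34, dotted lines mark a 2-fold change, and the intervals of 34 genes lie between those lines.

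The 6 enzymes that build the purine ring showed no called row, and their leading-row log2 fold changes ran from -0.18 to 0.06. Ppat, which catalyses the first committed step, had a fitted mean of 3962 in Ctrl and 3806 in Psat1iKO. Its log2 fold change per the authors' deposited table was -0.06 ± 0.0760. Gart, which carries out several early steps including one that takes a formyl group from folate, stood at 0.02 ± 0.0572 per the authors' deposited table. Its minor row Gart.1, with 5.51% of the gene's counts, had -0.62 ± 0.281 there (unadjusted p = 0.0284, DESeq2 adjusted p = 0.655). Pfas, which takes an amide nitrogen from glutamine at a later step, had 0.06 ± 0.131 per the authors' deposited table. Paics, which adds a carboxyl group and then aspartate, had the lowest value of the 6, with fitted means of 5466 and 4811 in its leading row Paics.1 and a log2 fold change of -0.18 ± 0.186 per the authors' deposited table. Its interval, from -0.55 to 0.18, includes 0, and its minor row Paics, with 13.2% of the gene's counts, stood at 0.02 ± 0.121 per the authors' deposited table.

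Adsl and Atic were the most tightly measured enzymes of this branch. Adsl, a lyase that acts both in ring synthesis and in making AMP, had -0.01 ± 0.0269 on a mean of 4766 per the authors' deposited table. Atic, which performs the last formyl transfer and closes the ring, had 0.01 ± 0.0491 on a mean of 11048 per the authors' deposited table. The intervals of both lay inside a 1.1-fold change.

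Ppat and Paics lie head to head on chromosome 5. In GENCODE M21 (GRCm38), Ppat runs on the minus strand from 76913249 to 76951578 and Paics on the plus strand from 76951307 to 76967509, and their exons overlap over 272 bases on opposite strands. No source used here gives the strand setting of the counting, so reads in that stretch cannot be told apart. The same holds where annotated antisense genes overlap exons of Gart (Gm15964, 1014 bases), Rrm2b (Gm49085, 734 bases) and Umps (Gm15829, 213 bases). The 250 bases before each RefSeq start (GRCm38.p6) are shown because Ppat and Paics are neighbours on the chromosome and act in the same pathway. The windows are chr5:76951579-76951828 on the minus strand for Ppat and chr5:76951052-76951301 on the plus strand for Paics. Each window lies inside the annotated span of the other gene. Capitals mark matches, on either strand, to the E-box CACGTG, the CCAAT box CCAAT, the E2F-like letters TTTNNCGC, the NRF1-like palindrome or the ATF4 element letters TGATGNAA.
Ppat start 1: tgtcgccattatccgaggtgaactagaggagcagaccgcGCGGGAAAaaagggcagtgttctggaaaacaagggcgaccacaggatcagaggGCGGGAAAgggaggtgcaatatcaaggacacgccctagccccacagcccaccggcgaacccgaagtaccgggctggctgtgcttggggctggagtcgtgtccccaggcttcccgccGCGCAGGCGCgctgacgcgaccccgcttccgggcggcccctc
Paics start 1: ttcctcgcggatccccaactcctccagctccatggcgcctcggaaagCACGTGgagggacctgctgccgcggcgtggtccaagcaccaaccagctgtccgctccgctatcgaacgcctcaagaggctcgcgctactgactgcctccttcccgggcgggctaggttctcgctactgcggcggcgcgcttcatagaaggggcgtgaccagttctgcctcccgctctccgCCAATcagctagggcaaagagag
Ppat held 2 E2F-like matches and 1 NRF1-like match, and Paics held 1 E-box and 1 CCAAT box. These windows contained 23 and 24 CpG dinucleotides.

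Promoters were listed for 33 of the 36 members (46 of 300 bases, 250 before and 50 after a start); Pfas, Dhodh and Rrm2b had none listed. The E-box, the site bound by Myc and related factors, was found in 8 of 46 member promoters (17.4%) and in 7.15% of all 32851 promoters. By gene it was in 7 of 33 members (21.2%) and 11.0% of the 12770 genes of the table with a promoter. The members were Paics, Atic, Impdh2, Tyms, Dtymk, Nme1 and Ak4. E2F-like letters were in 6 member promoters (13.0%, against 5.17% of all) and in 15.2% of member genes against 9.15% of table genes. CCAAT boxes were less frequent among members, in 28.3% of their promoters against 37.4% of all. The NRF1-like palindrome was in 3 member promoters (6.52%, against 4.60%), yet by gene in 9.09% of members and 9.64% of table genes. The ATF4 element letters were in 1 member promoter, that of Prps1 (2.17%, against 3.97%), yet by gene in 3.03% of members and 3.07% of table genes. These are matches of letters in a fixed window, given without a test. Median GC content was 59.8% in member promoters, 52.4% in all promoters and 58.8% in promoters of table genes. By median, member promoters also held more CpG dinucleotides than either of the other sets, and all promoters held the fewest. The E-box and the E2F-like letters each contain a CpG. Whether base composition accounts for their higher frequency among members was not tested.

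The 5 enzymes that turn IMP into AMP and GMP showed no called row, with leading-row values from -0.05 to 0.03. Impdh2, the abundant IMP dehydrogenase of the guanine branch, had fitted means of 11511 and 11412 in Ctrl and Psat1iKO. In the authors' deposited table its log2 fold change was -0.01 ± 0.0391. The leading row of its relative Impdh1 stood at 0.00 ± 0.0486 per the authors' deposited table, and the guanine-branch amidotransferase Gmps at 0.03 ± 0.0710. On the adenine branch, the authors' deposited table gave -0.01 ± 0.0404 for adenylosuccinate synthetase Adss. Adssl1, its muscle form, had -0.05 ± 0.244 on a mean of 683 per the authors' deposited table, an interval that reaches from -0.53 to 0.43.

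Pyrimidine ring synthesis was as level. Cad, the large protein that carries the first enzymes of the pathway, had fitted means of 14812 and 14959 in its leading row Cad.2, with a log2 fold change of 0.01 ± 0.0977 per the authors' deposited table. A minor row named Cad, with 0.741% of the gene's counts, had 2.90 ± 1.39 there (unadjusted p = 0.0368, DESeq2 adjusted p = 0.734). Dhodh, the mitochondrial enzyme that oxidizes dihydroorotate, stood at 0.09 ± 0.0653 per the authors' deposited table. Umps, which completes UMP, stood at -0.03 ± 0.0945 per the authors' deposited table. Of the CTP synthases, Ctps had -0.02 ± 0.0289 per the authors' deposited table, the interval running from -0.08 to 0.03. Ctps2, the minor synthase, had the lowest leading-row value of all 36 members, -0.39 ± 0.201 per the authors' deposited table, with fitted means of 409.5 and 312. It was not called (unadjusted p = 0.0521, DESeq2 adjusted p = 0.835), and the total over its 5 rows differed by -0.19. Its rows Ctps2.6 and Ctps2.7, with 16.4% and 12.5% of the counts, stood at 0.08 ± 1.28 and 0.40 ± 0.646 per the authors' deposited table.

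Deoxynucleotide enzymes, most of which are made at highest level in S phase, showed no called row among 7 genes. Rrm2, the S phase small subunit of ribonucleotide reductase, had the highest mean count of the leading rows of members. Its fitted means were 22196 in Ctrl and 22671 in Psat1iKO, and its log2 fold change per the authors' deposited table was 0.03 ± 0.0759. The large subunit Rrm1 had 0.00 ± 0.0658 on a mean of 14958 per the authors' deposited table. Rrm2b, the small subunit induced by p53, had fitted means of 503 and 412 and a log2 fold change of -0.29 ± 0.233 per the authors' deposited table, with an interval from -0.74 to 0.17. Thymidylate synthase Tyms, which like Gart and Atic draws directly on folate units, had fitted means of 3024 and 2954. The authors' deposited table lists it at -0.03 ± 0.0491, and its minor row Tyms.1 (10.5% of the counts) at 0.05 ± 0.239.

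Dtymk, which phosphorylates dTMP, was split almost evenly between its rows, at -0.02 ± 0.0509 for Dtymk.1 (57.2% of the counts) and 0.00 ± 0.0832 for Dtymk (42.8%) per the authors' deposited table. Dut, which removes dUTP, likewise had 71.0% and 29.0% of its counts in rows that both stood at -0.04 per the authors' deposited table, with standard errors of 0.0744 and 0.157. Samhd1, which breaks down deoxynucleoside triphosphates, had -0.05 ± 0.0630 in its leading row and 0.05 ± 0.357 in the minor row Samhd1 (12.5%) per the authors' deposited table. Over these 7 genes the fitted leading-row means summed to 49548 in Ctrl and 49676 in Psat1iKO.

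PRPP synthesis and salvage comprised 7 genes with no called row. Prps1, which makes PRPP, had 0.01 ± 0.0527 per the authors' deposited table. Its relative Prps2 had 0.05 ± 0.109 in the leading row and 0.13 ± 0.419 in a row with 15.1% of the counts per the authors' deposited table. Hprt, which salvages hypoxanthine and guanine, stood at -0.04 ± 0.0306 per the authors' deposited table. For Aprt, which salvages adenine, the authors' deposited table gave 0.02 ± 0.0295. The S phase thymidine kinase Tk1 had fitted leading-row means of 3998 and 4009 and a log2 fold change of 0.00 ± 0.0910 per the authors' deposited table. Deoxycytidine kinase Dck had 0.02 ± 0.0938 per the authors' deposited table.

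Tk2, the mitochondrial thymidine kinase, had the widest spread between rows of all members. It lies on chromosome 8 from 104226685 to 104248558 (GRCm38, minus strand) and was listed in 7 rows, the most of any member, with only 37.1% of its counts in the leading row Tk2.1. That row had fitted means of 95.6 in Ctrl and 244 in Psat1iKO, and a log2 fold change of 1.35 ± 0.512 per the authors' deposited table (unadjusted p = 0.00817, DESeq2 adjusted p = 0.368). The row Tk2, with 29.8% of the counts, stood at -0.67 ± 0.861, and Tk2.3, with 11.7%, at 0.52 ± 0.558 per the authors' deposited table. Tk2.4 and Tk2.5 had fitted means of 58.3 and 21.1 in Ctrl and under 1 in Psat1iKO. Their fold changes per the authors' deposited table, -8.39 ± 3.05 and -6.93 ± 3.25, were not called (unadjusted p = 0.00593 and 0.0329, DESeq2 adjusted p = 0.303 and 0.697). Over all rows the fitted totals were 468 and 449 in Ctrl and Psat1iKO, which differ by -0.06 on the log2 scale.

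Of the 6 nucleotide kinases the adenylate kinases Ak1 and Ak4 held the called rows, and the other 4 had none. Nme1 and Nme2, nucleoside diphosphate kinases that balance the triphosphate pools, stood at 0.00 ± 0.0348 and -0.03 ± 0.0504 per the authors' deposited table. The minor row Nme2.1 (21.4% of the counts) had 0.04 ± 0.0427 there. These genes are tandem, closely similar copies on chromosome 11, and GENCODE M21 also annotates a same-strand gene, Gm20390, whose exons overlap those of both, so the division of reads among them is uncertain. Guk1, which phosphorylates GMP, had 0.05 ± 0.0904 and, in a row with 33.1% of its counts, -0.13 ± 0.107 per the authors' deposited table. Cmpk1, which phosphorylates UMP and CMP, had fitted means of 2305 and 2184. Its log2 fold change of -0.08 ± 0.0356 per the authors' deposited table did not pass the test (unadjusted p = 0.0294, DESeq2 adjusted p = 0.666), and the interval from -0.15 to -0.01 lies inside a 1.2-fold change.

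Ak1, the cytosolic adenylate kinase that interconverts ATP, ADP and AMP and is abundant in mature muscle, rose in Psat1iKO in its leading row. Ak1.3 had a fitted mean of 172 in Ctrl and 436 in Psat1iKO. In the authors' deposited table its log2 fold change was 1.34 ± 0.358, a fold of 2.54, with a DESeq2 adjusted p of 0.032. This row held 52.2% of the gene's counts. Ak1.1, with 32.3%, had fitted means of 199.7 and 177 and a log2 fold change of -0.17 ± 0.483 per the authors' deposited table, and Ak1.2, with 15.5%, had 0.28 ± 1.18 there. Over its rows the gene had fitted totals of 453 and 712 in Ctrl and Psat1iKO, which differ by 0.65 on the log2 scale, with no test. With Benjamini-Hochberg adjustment over leading rows alone the adjusted p of Ak1.3 was 0.0638, so the call depends on which rows are adjusted together.

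Markers of other cells were compared beside Ak1. Of 19 listed adult myofibre genes 0 were called by DESeq2, against 0.338% of all leading rows. An unadjusted p under 0.05 was found in 0 of them, against 4.09% of all leading rows. At such shares 19 genes are too few for a count of 0 to be read against the background. The myofibre genes had a median log2 fold change of -0.03 and a median standard error of 0.346, against 0.0684 for the members. Their summed leading-row level was 66487 in Ctrl and 64046 in Psat1iKO. Pericyte and smooth muscle markers lay above 0 in 7 of 9 genes, with sums of 7815 and 9298, 0 leading rows called by DESeq2, 1 minor row called (of Myh11) and 1 leading row with an unadjusted p under 0.05. Macrophage markers lay below 0 in 13 of 13 genes, with sums of 3630 and 803, 0 called by DESeq2 and 4 with an unadjusted p under 0.05. Their median standard error was 1.07, and Lyz2 alone had fitted means of 1849 in Ctrl and 299 in Psat1iKO. None of the listed markers had a mean of 0, while Csf1r and C1qa of the macrophage list and Pvalb of the myofibre list have no row in the authors' deposited table. The pericyte and macrophage differences were not called in any leading row. Whether RNA of myofibres, pericytes or macrophages had a part in the Ak1 result was not tested. In bulk RNA, fewer cells of a type and less RNA per cell cannot be told apart.

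Ak1 lies on chromosome 2 from 32621758 to 32635058 (GRCm38, plus strand), with no exon of another annotated gene over its exons, and RefSeq lists 4 starts for it. The 250 bases before each are shown because the rows of Ak1 differed in fold change and the table does not tie a row to a start. In order along the chromosome they are chr2:32621508-32621757, chr2:32625187-32625436, chr2:32628140-32628389 and chr2:32629250-32629499 of GRCm38.p6, all on the plus strand.
Ak1 start 1: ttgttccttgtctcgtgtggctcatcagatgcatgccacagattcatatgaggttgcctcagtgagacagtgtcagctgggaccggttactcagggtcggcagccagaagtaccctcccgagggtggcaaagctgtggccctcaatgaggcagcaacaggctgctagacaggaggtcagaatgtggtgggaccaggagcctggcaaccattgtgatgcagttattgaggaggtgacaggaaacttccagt
Ak1 start 2: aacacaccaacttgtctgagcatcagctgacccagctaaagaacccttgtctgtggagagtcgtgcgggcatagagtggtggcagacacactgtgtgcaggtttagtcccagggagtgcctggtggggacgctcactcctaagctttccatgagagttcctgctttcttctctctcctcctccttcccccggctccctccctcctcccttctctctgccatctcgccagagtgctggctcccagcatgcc
Ak1 start 3: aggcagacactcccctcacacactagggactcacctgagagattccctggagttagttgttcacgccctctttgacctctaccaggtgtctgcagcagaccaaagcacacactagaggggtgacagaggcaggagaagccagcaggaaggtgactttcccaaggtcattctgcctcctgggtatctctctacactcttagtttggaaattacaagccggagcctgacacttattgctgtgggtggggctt
Ak1 start 4: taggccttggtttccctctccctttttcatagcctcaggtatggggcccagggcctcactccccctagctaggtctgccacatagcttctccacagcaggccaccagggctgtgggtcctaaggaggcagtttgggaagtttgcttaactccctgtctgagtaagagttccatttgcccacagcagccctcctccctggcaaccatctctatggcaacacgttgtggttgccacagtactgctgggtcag
No capitals appear, because none of the 5 sets of letters searched above matched in these windows. The windows held 4, 5, 2 and 1 CpG dinucleotides, fewer than the 23 and 24 of Ppat and Paics.

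Ak4, a mitochondrial adenylate kinase family member on chromosome 4 (101419277 to 101466995, GRCm38, plus strand), was listed in 5 rows. Its leading row Ak4.4, with 41.0% of the counts, had fitted means of 216 and 208. The authors' deposited table gave it a log2 fold change of -0.05 ± 0.286. The rows Ak4.5 (24.5%) and Ak4.2 (21.3%) stood at -0.65 ± 0.394 and -1.10 ± 0.932 per the authors' deposited table, neither called. A minor row named Ak4, with 6.09% of the counts, was called higher, with a fitted mean of 62.9 in Psat1iKO and under 1 in Ctrl. Its log2 fold change per the authors' deposited table was 8.37 ± 2.12 (DESeq2 adjusted p = 0.0179), a size that is loosely set because almost no counts lie in Ctrl. The mean of 31.5 over the libraries does not show in how many of them the row was found. For the whole gene Ak4 the fitted totals were 541 and 493, which differ by -0.13 on the log2 scale.

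**Figure D2:**
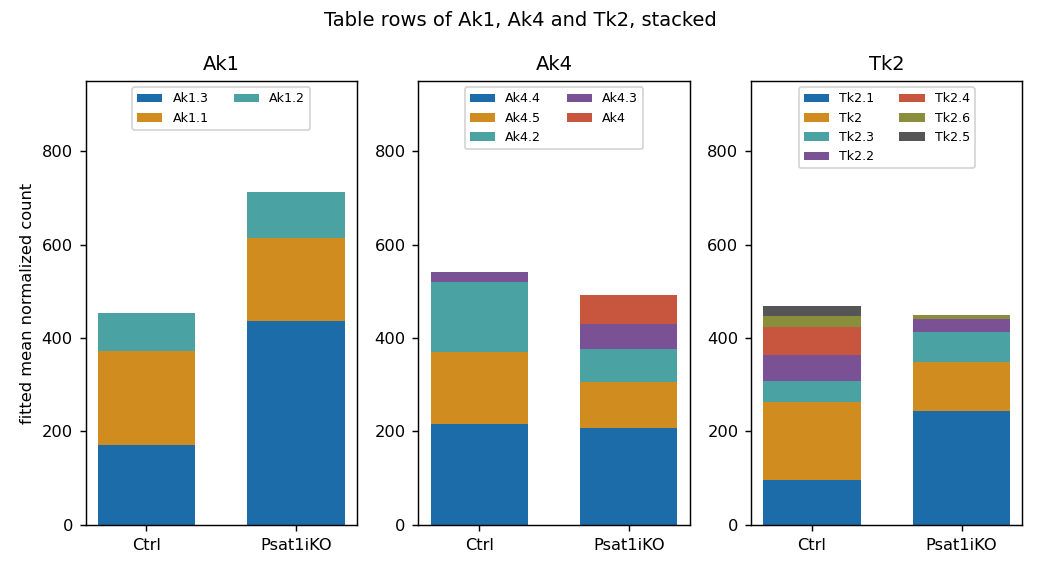
Fitted mean normalized counts (vertical axis) of every table row of Ak1, Ak4 and Tk2, stacked to the gene total, in Ctrl and Psat1iKO; no error is drawn, since no values per library were analysed. Ak1 totals 453 and 712, the difference lying in Ak1.3, while Ak4 (541 and 493) and Tk2 (468 and 449) have closer totals made up of different rows.

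The authors' deposited list of enriched terms for rows higher in Psat1iKO contains Ak1 and Ak4 under nucleoside diphosphate phosphorylation, with 3 of the term's 66 genes in the list and an enrichment p of 0.00249 (q = 1). The third gene was Eno1b, at 6.24 ± 0.0473 per the authors' deposited table, with fitted means of 427 in Ctrl and 32157 in Psat1iKO. The same 3 genes make up nucleotide phosphorylation (p = 0.00295) and nucleoside diphosphate metabolic process (p = 0.00653) in the authors' deposited list, both with q = 1. The called row of Ak4 carries 6.09% of the gene's counts. Eno1b is a near-identical copy of the glycolytic gene Eno1, so the division of reads between them is uncertain. No value of Eno1 is given here.

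Row by row, large fold changes among the members were a feature of thinly counted minor rows. The 40 minor rows had a median mean count of 103 and a median standard error of 0.853, against 3944 and 0.0684 for the leading rows, and ranged from -8.39 to 8.37. A change of at least 2-fold in size was found in 11 minor rows and in 2 leading rows. Of all 76 rows, 2 were called (2.63%), both higher, against 0.656% of all rows in the table, 0.332% higher and 0.324% lower. Of the 40 minor rows 1 was called, the row Ak4, against 0.917% of all minor rows. An unadjusted p under 0.05 was found in 8 of all 76 rows (10.5%, against 6.04% of the table's rows), 4 higher and 4 lower. The leading row held over 50% of the counts in 34 members, and Tk2 and Ak4 were the others. Summed over rows, 34 members differed by less than 0.2 on the log2 scale, and the exceptions were Ak1 at 0.65 and Rrm2b at -0.28.

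**Figure D3:**
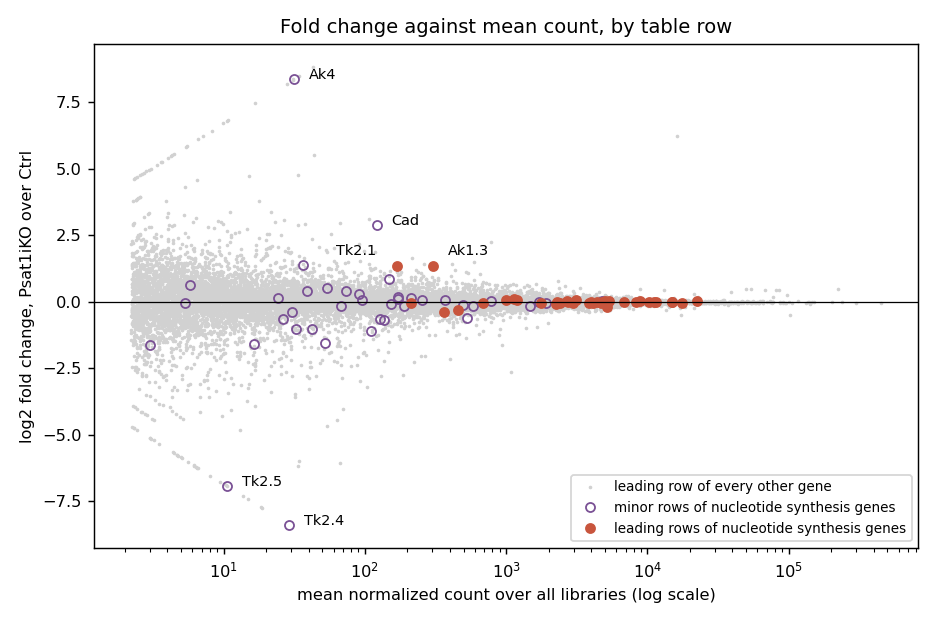
Log2 fold change of Psat1iKO over Ctrl (vertical axis) against the mean normalized count over all libraries (horizontal log axis) for each row, with leading rows of other genes in grey, leading rows of nucleotide synthesis genes filled and their minor rows open. The filled points lie close to 0 apart from Ak1.3 and Tk2.1, and the farthest open points, Ak4 at 8.37 and Tk2.4 at -8.39, have mean counts of 31.5 and 29.2.

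In 8 pairs of related enzymes, some of them placed in different parts of the cell, the more abundant enzyme was the same in both genotypes. Levels are gene totals per kilobase of the longest coding transcript in GENCODE M21, a rough scale, because rows could not be matched to transcripts. Rrm2 stood at 10121 per kb in Ctrl and 10338 in Psat1iKO and Rrm2b at 111 and 91.5, a ratio of levels of 90.9 and 113. Cytosolic Tk1 exceeded mitochondrial Tk2 with ratios of 14.6 and 15.3, and Ctps exceeded Ctps2 with 13.8 and 15.5. The ratio was 8.0 and 8.20 for Adss over the muscle form Adssl1, 5.33 and 5.38 for Impdh2 over Impdh1, and 6.01 and 5.78 for Prps1 over Prps2. The adenylate kinases were the pair whose ratio moved most, with Ak1 over Ak4 at 1.75 in Ctrl and 3.02 in Psat1iKO. That ratio has no error or test and includes the called row Ak1.3 already described. Nme2 stood above Nme1 at 6.90 and 6.83, with the uncertainty of shared reads given above. Dividing by the length of merged exons moved the mean ratio from 101 to 159.8 for Rrm2 over Rrm2b and from 15.0 to 6.16 for Tk1 over Tk2, with the same order in all 8 pairs.

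**Figure D4:**
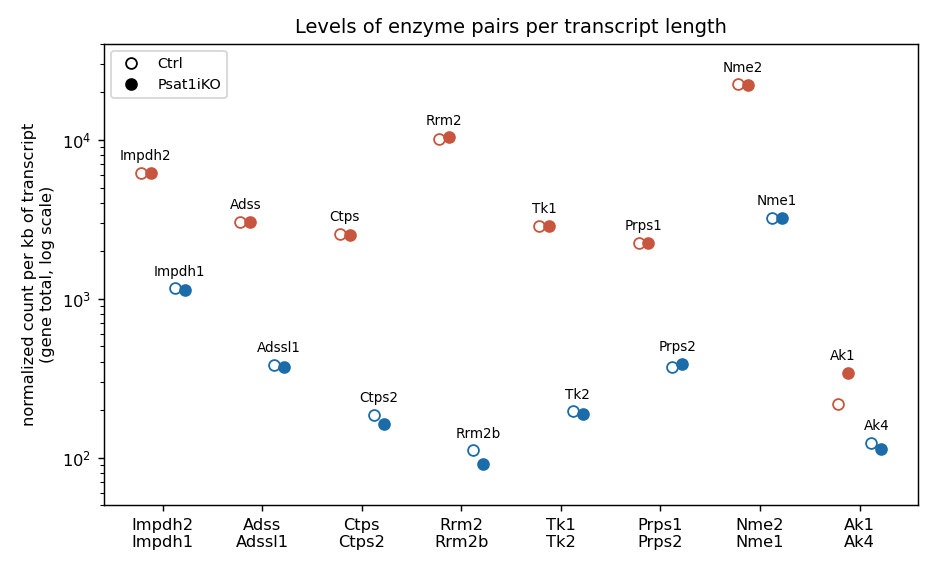
Fitted gene totals per kilobase of the longest coding transcript (vertical log axis) for 8 pairs of related enzymes, with open points for Ctrl and filled points for Psat1iKO. In 7 pairs the points of the genotypes nearly coincide beside the distance between the enzymes, while Ak1 stands at 217 and 342 and Ak4 stands at 124 and 113.

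Other genes of nucleotide metabolism were taken from a list of 60 further kinases, deaminases, nucleotidases, phosphorylases and transporters, of which 51 have rows in the authors' deposited table. Of their leading rows 1 was called, lower, and 0 were called higher by DESeq2, against 0.338% of all leading rows called. At an unadjusted p under 0.05 there were 1 higher and 3 lower, against 4.09% of all leading rows. The median log2 fold change of the list was -0.02. The count of called leading rows was 0 with adjustment over leading rows alone and after centring on the median.

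Ampd2, an AMP deaminase that returns AMP to IMP, had rows with fold changes of opposite sign, and an antisense gene, Gm12500, overlaps its exons. The minor row Ampd2, with 27.4% of the counts, was called lower at -0.53 ± 0.124 per the authors' deposited table, with fitted means of 1071 and 741 (DESeq2 adjusted p = 0.00547). The leading row Ampd2.2, with 49.3%, had 1431 and 1828 and a log2 fold change of 0.35 ± 0.109 per the authors' deposited table, which was not called (DESeq2 adjusted p = 0.116). The gene's fitted total was 3292 in Ctrl and 3322 in Psat1iKO. Dpys and Gda, which break down pyrimidines and guanine, had mean counts of 2.83 and 10.6 and were not called.

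Genes that feed nucleotide synthesis or use its products were compared in the same way. The background was again 0.338% of all leading rows called and 4.09% with an unadjusted p under 0.05. Of 20 measured genes of serine and one-carbon metabolism Psat1 alone was called, and the median was 0.01. The folate carrier Slc19a1, the gene of next smallest p, stood at 0.28 ± 0.148 in its leading row per the authors' deposited table and was not called (unadjusted p = 0.0559). Next came the mitochondrial folate carrier Slc25a32 at 0.12 ± 0.0957 and the folate polyglutamate synthase Fpgs at -0.05 ± 0.0482 per the authors' deposited table. The 9 pentose phosphate genes, which supply ribose phosphate, ranged from -0.41 to 0.16, with 0 called by DESeq2 and 0 at an unadjusted p under 0.05. Those of smallest p were Pgd at 0.16, Rbks at -0.41, G6pdx at 0.07 and Tkt at -0.10 per the authors' deposited table. Among 26 replication genes, from the Mcm helicase to DNA ligase Lig1, the range was -0.11 to 0.22 and the median -0.02, again with 0 called by DESeq2 and 0 at an unadjusted p under 0.05. Those of smallest p were Cdc45 at -0.09, Gins2 at -0.04, Gins1 at 0.05 and Ccne2 at -0.11 per the authors' deposited table. The summed leading-row level of the list was 161273 in Ctrl and 160915 in Psat1iKO.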

How the data were processed

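The submitters' processing notes name HISAT2 (2.2.1), DESeq2, whose version appears as 4.2.0, and the mouse build mm10 as what the authors used. No source used here gives the counting program, annotation, filters or strand setting. The series' design text gives 250 ng of RNA and poly(A) selection. Per the file headers, each row of the authors' deposited table holds a mean of normalized counts over the 8 libraries (a signal), a log2 fold change, its standard error, the Wald statistic (a score) and a raw and an adjusted p-value. The authors' deposited enrichment list holds log10 of p and of q. Values per library were not analysed, so the depth of each library is unknown and no SD is given.

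Deposited fold changes, Ctrl over Psat1iKO, were turned to Psat1iKO over Ctrl. A row was called at a deposited adjusted p under 0.05. Fitted group means assume equal group sizes and were summed over rows for gene totals. The code that adjusts p-values was tested on simulated independent rows with large planted changes. That is a check of the code only and does not bear on the calls. Positions and lengths came from GENCODE M21 and promoters from RefSeq GRCm38.p6, with Python 3.11.15, pandas 2.3.3 and scipy 1.17.1.

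Members and lists were chosen with earlier results of these data known. Every member was named, with its minor rows that were called, had an unadjusted p under 0.05 or held at least 10% of the gene's counts. From the lists of related genes, every called row and the 4 genes of smallest leading-row p were named, except 1 gene that is not reported here. Alternatives were the rows adjusted together, a minimum mean of 10 or 100, a 2-fold minimum, centring on the median, gene totals and, added later, those given as chosen after seeing the data.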

Additional observations from a re-analysis of the deposited data

How the results depend on the processing

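The count of called leading rows among the 36 members was 1 (Ak1.3) in the deposited adjustment and also with rows of a mean of at least 10 or 100, with a 2-fold change required, or after centring. It was 0 with adjustment over leading rows alone, and 2 (Ak1 and Ak4) when the smallest p of a gene was multiplied by its number of rows before adjustment over genes, an alternative chosen after seeing the data. The count of members with any called row was 2, and 1 once rows with a mean under 100 were left out, where the called row of Ak4 is not tested. For the wider list of nucleotide genes the count was 1, and 0 over leading rows alone, with a 2-fold change required, or after centring. The median log2 fold change of members was between -0.01 and 0.00 under each alternative run. Taking gene totals in place of leading rows moved Tk2 from 1.35 to -0.06 and Ak1 from 1.34 to 0.65, and moved the other 34 members by less than their standard error. The centring shift was -0.01 and changed no member's call. Length of merged exons, also chosen after seeing the data, moved 2 of 8 enzyme ratios by over 1.5 times.

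No paired analysis was possible because the values analysed here hold no columns per library. Leaving out replicates was not run for the same reason, so whether 1 library decides the Ak1 or Ak4 call was not tested. Minor rows were less precisely measured than leading rows, with median standard errors of 0.853 and 0.0684.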
